A study of Rattus norvegicus with 6 samples.

Results

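The miR-200 family is a group of 5 microRNA hairpins, miR-200a, miR-200b, miR-200c, miR-141 and miR-429. Its members were found in the deposited rat table by name. The rule was the rat prefix with one of those 5 names, alone or with an arm suffix, and it used no measured value. It found 9 of the 693 miRNAs in the table, namely rno-miR-200a-3p, rno-miR-200b-3p, rno-miR-200c-3p, rno-miR-141-3p and rno-miR-429, which are the main arms, and the 5p arms of miR-200a, miR-200b, miR-200c and miR-141. The prefix is left out below. All 9 passed the filter on low counts, out of 418 miRNAs tested.

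Small RNA was sequenced from lung of Sprague-Dawley rats, with 3 libraries from ischemia reperfusion (IR) animals and 3 from sham-operated controls, which the labels call control. The study's methods describe young male rats under urethane anesthesia and ventilation, in which the left lung hilum was closed and then released in IR. In sham animals the chest was opened but blood flow to the lung was left untouched, and for the time of reperfusion before sampling the labels and methods give no value. The lung was taken as whole tissue, so every library held epithelium together with blood vessels, connective tissue and blood. The labels do not say that each library came from its own animal, though the study calls the libraries of a group biological replicates. The p-values below measure the spread between these libraries.

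miR-200 miRNAs are made mainly by epithelial cells. They are best known for repressing the transcription factors Zeb1 and Zeb2, which silence the E-cadherin gene and drive the loss of epithelial character, and Zeb factors in turn repress the miR-200 genes. A miRNA finds its target messages mainly through its seed, bases 2 to 8 from the 5′ end, so members of a family that differ in the seed can reach different messages.

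In RefSeq (GRCr8) the 5 hairpins lay at a pair of loci, all on the minus strand. Mir200b (chr5:171931495-171931589), Mir200a (chr5:171930717-171930805) and Mir429 (chr5:171929682-171929766) together spanned 1908 bases, with gaps of 689 and 950 bases. The annotation places them inside the long noncoding RNA LOC106182250 on the same strand, within the extent of Ttll10, and between Tnfrsf18 and C5h1orf159. Mir200c (chr4:159209965-159210033) and Mir141 (chr4:159209525-159209618) lay 346 bases apart in a span of 509 bases, between Phb2 and Ptpn6. The sources used here do not give the authors' own genome build.

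The sequences that set the family's seed groups are shown with the seed letters in capitals, as mature miRNAs for the chromosome 4 locus and as hairpins for the chromosome 5 locus. The mature entries of miR-200a-3p, miR-200b-3p and miR-429 are named only, and in their hairpins the capitals mark where the same 7 letters as in miR-200c-3p or miR-141-3p were found.
miR-200c-3p: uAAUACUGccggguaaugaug
miR-141-3p: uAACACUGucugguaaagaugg
Mir200b hairpin: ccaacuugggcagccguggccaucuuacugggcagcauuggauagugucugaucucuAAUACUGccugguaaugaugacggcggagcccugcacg
Mir429 hairpin: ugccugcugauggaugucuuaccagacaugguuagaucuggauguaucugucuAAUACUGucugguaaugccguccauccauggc
Mir200a hairpin: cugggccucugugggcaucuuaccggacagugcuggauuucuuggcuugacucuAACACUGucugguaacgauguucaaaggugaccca

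The letters AAUACUG stood in the 3p arm of the Mir200b and Mir429 hairpins and form the seed of miR-200c-3p. The letters AACACUG stood in Mir200a and form the seed of miR-141-3p. Each locus thus carried both seeds. Of 417 distinct rat hairpins in RefSeq, 4 (0.959%) held AAUACUG, the fourth being Mir145, and 4 (0.959%) held AACACUG, the others being Mir3575 and Mir3587. Counted from 1 at the 5′ end of miR-200c-3p, miR-141-3p differed from it by U4C, C9U, G11U and U17A over 21 bases, and only U4C fell in the seed.

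The 5p arms are shown because 1 of them, miR-200a-5p, was among the members with the clearest difference and has a partner on the opposite strand. Capitals mark bases 2 to 8 of the family members.
miR-200a-5p: cAUCUUACcggacagugcugg
miR-200b-5p: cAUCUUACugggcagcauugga
miR-141-5p: uCCAUCUUccagugcaguguug
miR-200c-5p: cGUCUUACccagcaguguuug
miR-3548, opposite strand: cagcacuguccgguaagaugcc

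miR-200a-5p and miR-200b-5p had the same seed, AUCUUAC, and differed at 5 of 21 bases (C9U, A12G, U16C, G17A and C18U, from miR-200a-5p). miR-141-5p and miR-200c-5p each had a seed of their own. miR-3548 (chr5:171930771-171930792, plus strand) was complementary to 20 of the 21 bases of miR-200a-5p.

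The 6 libraries held 3775663 to 11248166 reads on listed miRNAs. Levels below are normalized CPM, which are counts per 1e6 listed miRNA reads of a library after TMM scaling. A floor was set at 3 reads, which corresponded to 0.253 to 0.855 normalized CPM, and counts of 0 were left at 0. Mature miRNAs are nearly equal in length, so levels carry no length term, and ligation of adapters is known to favour some miRNA sequences over others. Sham replicate 3 stood apart in that miR-21-5p took 24.2% of its reads, against 9.66 to 13.5% in the other libraries, and its TMM factor was 0.867 against 0.929 to 1.06.

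All members were above the floor in every library, and the family was an abundant one. The 5 main arms together took 1.37%, 1.67% and 1.32% of listed reads in the 3 sham libraries and 2.02%, 1.76% and 1.97% in the 3 IR libraries. miR-200a-3p was the highest member, at rank 23 of 693 by mean level, next to miR-101a-3p (a mean of 8055 normalized CPM over the 6 libraries) above it and let-7c-5p (7148) below it. miR-200b-3p ranked 32, between miR-27a-3p (4992) and miR-125b-5p (4668). miR-200c-3p ranked 41, between miR-378a-3p (3624) and miR-125a-5p (3278).

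miR-429 ranked 76, between miR-3596b (837 normalized CPM) and miR-93-5p (806), and miR-141-3p ranked 116, between miR-3556a (339) and miR-339-5p (314). The order of the 5 main arms was the same in 6 of 6 libraries. Within a library miR-200a-3p was 1.31 to 1.89 times miR-200b-3p, miR-200b-3p was 1.25 to 1.71 times miR-200c-3p, miR-200c-3p was 2.92 to 5.14 times miR-429, and miR-429 was 1.80 to 3.57 times miR-141-3p. The 5p arms came below them. miR-141-3p and miR-200a-5p could not be ordered, since miR-141-3p was the higher in 3 of 6 libraries. miR-200a-5p was 7.39 to 9.41 times miR-200b-5p, miR-200b-5p 1.97 to 3.66 times miR-141-5p, and miR-141-5p 3.08 to 14.2 times miR-200c-5p, each in 6 of 6 libraries. The plot of levels by library shows this order.

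**Figure D1:**
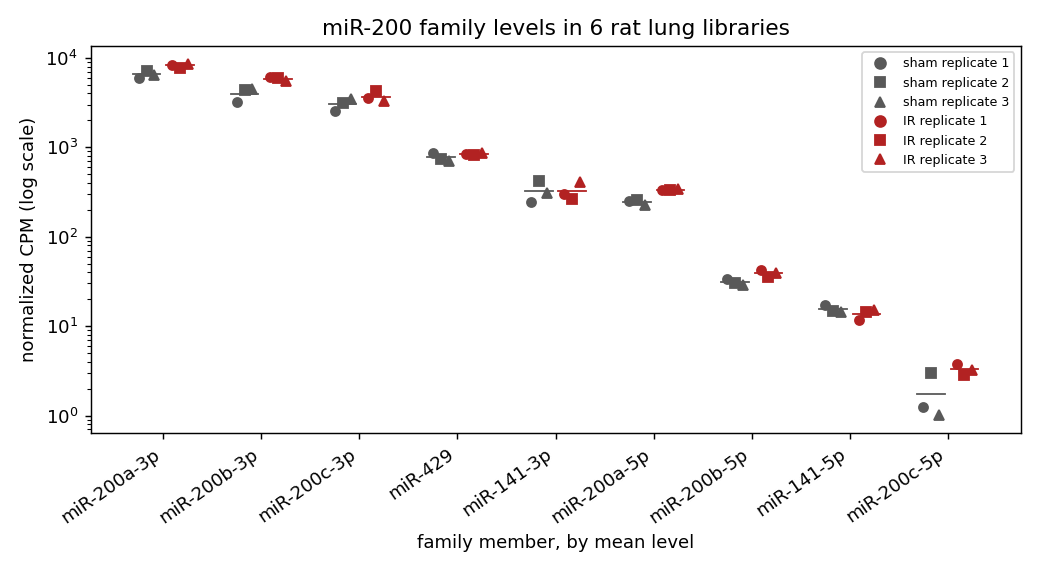
Level of each of the 9 miR-200 family members (x axis, by mean level) in normalized CPM on a log scale (y axis), with 1 point per library, grey for sham, red for IR, marker shapes for replicates 1 to 3 and a bar at each group mean. The levels run from 1.01 to 8657 normalized CPM, and the sham and IR points do not overlap for miR-200a-3p, miR-200b-3p, miR-200a-5p and miR-200b-5p.

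The question of the study was which lung miRNAs differ after ischemia reperfusion. Tested against sham over all 418 miRNAs with edgeR's quasi-likelihood test and Benjamini-Hochberg adjustment, 0 of the 9 family members passed an adjusted p of 0.05, where 10.5% of all tested miRNAs did (44 of 418, 33 higher and 11 lower). At an unadjusted p under 0.05, 3 members were higher in IR (14.1% of all tested were) and 0 lower. Of all 418 tested, 110 had such a p in either direction, and 59 of these were higher in IR. For 4 of the 9, all IR libraries lay above all sham libraries, as for 17.2% of all tested. The log2 fold change was above 0 for 8 of 9 members against 48.8% of all tested, with a median of 0.33 over the members, 0.28 over the 5 main arms and -0.01 over all tested. In bulk tissue, a change in the number of cells of a type and a change in the RNA of each cell cannot be told apart.

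By other tests 1 or 2 members passed an adjusted p of 0.05. DESeq2 called miR-200b-3p and miR-200a-5p, against 9.37% of all it tested called higher. The likelihood ratio test of edgeR called miR-200b-3p (10% of all tested were called higher), and limma-trend on log2(TPM + 1) called miR-200b-3p (9.09%). Which side of the threshold miR-200b-3p and miR-200a-5p fell on thus varied with the test, and the other 7 members were not called by these tests.

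miR-200b-3p, which carries the AAUACUG seed and is among the best-studied repressors of Zeb1 and Zeb2, had the largest difference of the 5 main arms. It stood at 3187, 4345 and 4446 normalized CPM in sham replicates 1, 2 and 3 and at 6123, 5917 and 5466 in IR replicates 1, 2 and 3. All IR libraries were above all sham libraries, with sham replicate 1 the lowest. The group means were 3992 ± 700 (SD, n = 3) and 5835 ± 336, a ratio of 1.46 (95% interval 1.14 to 1.87), or a log2 fold change of 0.55 ± 0.16 (SE, interval 0.19 to 0.91, edgeR adjusted p = 0.0647). The log2 fold change was 0.40 without sham replicate 1.

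miR-200a-3p comes from the same transcript as miR-200b-3p but has the other seed, AACACUG. It stood at 6032, 7220 and 6393 normalized CPM in sham and 8370, 7770 and 8657 in IR. The groups again did not overlap, and sham replicate 1 was again the lowest library. From 6548 ± 609 in sham to 8266 ± 452 in IR (SD, n = 3), the log2 fold change was 0.34 ± 0.13 (interval 0.05 to 0.63, edgeR adjusted p = 0.132).

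miR-429, the third miRNA of this locus, shares the seed of miR-200b. Its levels were 874, 747 and 696 normalized CPM in sham and 842, 821 and 855 in IR. Here sham replicate 1 was the highest library, and the groups overlapped. The means were 772 ± 91.8 and 839 ± 17.1 (SD, n = 3), with a log2 fold change of 0.12 ± 0.13 (interval -0.19 to 0.43, edgeR adjusted p = 0.592). It was 0.04 without sham replicate 3 and 0.20 without sham replicate 1.

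The 5p arms of this locus are the strands of the hairpins that are mostly discarded. miR-200a-5p stood at 250, 256 and 229 normalized CPM in sham and 337, 330 and 345 in IR, so that the groups did not overlap and each was narrow. The means were 245 ± 14.0 and 337 ± 7.26 (SD, n = 3), a ratio of 1.38 and a log2 fold change of 0.46 ± 0.13 (interval 0.16 to 0.76, edgeR adjusted p = 0.0647). miR-200b-5p stood at 33.8, 30.7 and 28.9 in sham and 42.6, 35.1 and 39.2 in IR, also without overlap, with a log2 fold change of 0.33 ± 0.18 (interval -0.10 to 0.75, edgeR adjusted p = 0.294).

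The count of miR-200a-5p has a limit of its own. The reads listed for miR-3548, the antisense partner shown above, came to 94.6%, 96.1% and 94.2% of those of miR-200a-5p in the sham libraries and 93.6%, 92.2% and 94.1% in the IR libraries. miR-3548 had a log2 fold change of 0.43 ± 0.14 (edgeR adjusted p = 0.0761). Neither the labels nor the methods say whether strand was used in counting, and without strand the reads of the pair cannot be told apart.

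miR-200c-3p is the main product of the chromosome 4 locus and has the seed of miR-200b. It stood at 2553, 3157 and 3439 normalized CPM in sham and 3585, 4215 and 3290 in IR, where IR replicate 3 fell below sham replicate 3. The means were 3050 ± 453 and 3697 ± 473 (SD, n = 3), with a log2 fold change of 0.28 ± 0.16 (interval -0.09 to 0.64, edgeR adjusted p = 0.296). Leaving out sham replicate 1 gave 0.15, leaving out IR replicate 2 gave 0.17, and IR replicate 3 gave 0.40 when left out.

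miR-141-3p, which has the seed of miR-200a, stood at 245, 415 and 307 normalized CPM in sham and 303, 261 and 405 in IR. The libraries of the groups were interleaved, and the means were 322 ± 86.1 and 323 ± 74.0 (SD, n = 3). Its log2 fold change was 0.00 ± 0.24 (interval -0.55 to 0.56, edgeR adjusted p = 0.997), an interval wide enough to hold the estimates of the other main arms.

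The 5p arms of the chromosome 4 locus were low. miR-141-5p stood at 17.1, 14.8 and 14.3 normalized CPM in sham and 11.6, 14.5 and 15.2 in IR, with overlap and a log2 fold change of -0.16 ± 0.22 (interval -0.66 to 0.33, edgeR adjusted p = 0.658), the one value below 0 among the members. miR-200c-5p rested on 10, 34 and 9 reads in sham and 25, 10 and 38 in IR, or 1.26, 3.01 and 1.01 and 3.77, 2.85 and 3.20 normalized CPM. The groups overlapped through sham replicate 2, and the log2 fold change was 0.87 ± 0.45 (interval -0.18 to 1.91, edgeR adjusted p = 0.258). Without sham replicate 2 it was 1.56 (adjusted p = 0.0433). The plot of differences sets the 9 members side by side.

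**Figure D2:**
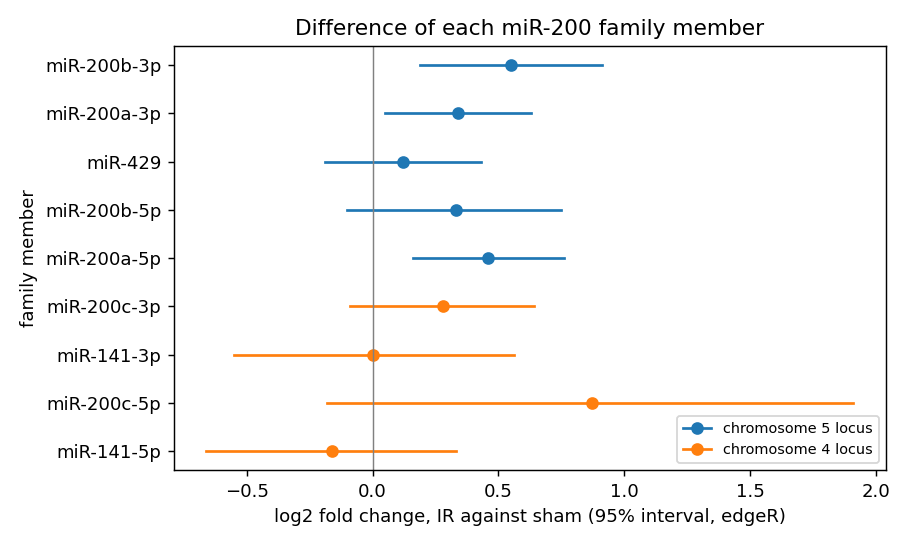
Log2 fold change of IR against sham (x axis) for each family member (y axis), with its 95% interval from edgeR's quasi-likelihood fit, blue for the chromosome 5 locus and orange for the chromosome 4 locus. The intervals of miR-200b-3p (0.19 to 0.91), miR-200a-3p (0.05 to 0.63) and miR-200a-5p (0.16 to 0.76) lie above 0, and the interval of miR-200c-5p is the widest.

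The loci were then compared within each library, since a ratio of reads in 1 library does not depend on its depth or scaling. The main arms of the chromosome 5 locus summed to 10093, 12312 and 11535 normalized CPM in sham and 15335, 14508 and 14978 in IR, or 75.5 to 80.2% of the family. Those of the chromosome 4 locus summed to 2797, 3572 and 3746 in sham and 3888, 4476 and 3695 in IR. IR libraries lay above sham libraries at the first locus and overlapped with them at the second.

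The ratio of the chromosome 5 locus to the chromosome 4 locus was 3.61, 3.45 and 3.08 in sham and 3.94, 3.24 and 4.05 in IR. The groups overlapped in this ratio, and its log2 was 0.15 ± 0.12 higher in IR (SE, exact permutation p = 0.3, adjusted p = 0.5 over the 10 quantities tested this way). With 3 libraries against 3, the smallest two-sided p that such a test can give is 0.1. A difference between the loci in their response was therefore not shown, although miR-200b-3p, miR-200a-3p and miR-200a-5p, the 3 members with an unadjusted p under 0.05, all come from the first.

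Grouped by seed, the AAUACUG members (miR-200b-3p, miR-200c-3p and miR-429) summed to 6614, 8249 and 8581 normalized CPM in sham and 10550, 10953 and 9611 in IR. The AACACUG members (miR-200a-3p and miR-141-3p) summed to 6277, 7635 and 6700 in sham and 8673, 8031 and 9062 in IR. For both seeds every IR library was above every sham library, and the AAUACUG seed took 51.3 to 57.7% of the family's reads. The ratio of the first seed to the second was 1.05, 1.08 and 1.28 in sham and 1.22, 1.36 and 1.06 in IR, a difference of 0.09 ± 0.14 in log2 with overlapping groups (exact permutation p = 0.6, adjusted p = 0.667).

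The family's share of listed reads, given above by library, was 1.46 ± 0.19% in sham and 1.92 ± 0.14% in IR (SD, n = 3). The difference was 0.46 ± 0.13 percentage points, with all IR libraries above all sham libraries and the smallest p the design allows (exact permutation p = 0.1, adjusted p = 0.5). Leaving out each library in turn gave 0.40 to 0.57 percentage points. A share depends on the other miRNAs of its library, and the lowest share was in sham replicate 3, where miR-21-5p took 24.2% of reads. After TMM scaling the 5 main arms summed to 12890, 15883 and 15280 normalized CPM in sham and 19223, 18984 and 18673 in IR. The lowest library was then sham replicate 1, and the groups again did not overlap.

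Members of 1 locus are cut from neighbouring hairpins, so their ratios describe how evenly they are represented. The ratio of miR-429 to miR-200b-3p was 0.274, 0.172 and 0.157 in sham and 0.138, 0.139 and 0.156 in IR. Every IR library lay below every sham library, the nearest being 0.156 against 0.157, with a log2 difference of -0.44 ± 0.26 (exact permutation p = 0.1, adjusted p = 0.5), but most of the size came from sham replicate 1, without which the difference was -0.19. The ratio of miR-200b-3p to miR-200a-3p was 0.528, 0.602 and 0.695 in sham and 0.732, 0.761 and 0.631 in IR, with overlap and a log2 difference of 0.22 ± 0.14 (exact permutation p = 0.2, adjusted p = 0.5).

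The ratio of miR-429 to miR-200a-3p ranged from 0.103 to 0.145 in sham and 0.0987 to 0.106 in IR (log2 difference -0.21 ± 0.15, exact permutation p = 0.2, adjusted p = 0.5), and was -0.06 without sham replicate 1. At the other locus, miR-141-3p was 0.0959, 0.131 and 0.0893 of miR-200c-3p in sham and 0.0846, 0.0619 and 0.123 in IR (log2 difference -0.27 ± 0.33, exact permutation p = 0.4, adjusted p = 0.571). Its libraries were interleaved, and leaving out IR replicate 2 or sham replicate 2 brought the difference to -0.03 or -0.10. The plot of ratios shows these values.

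**Figure D3:**
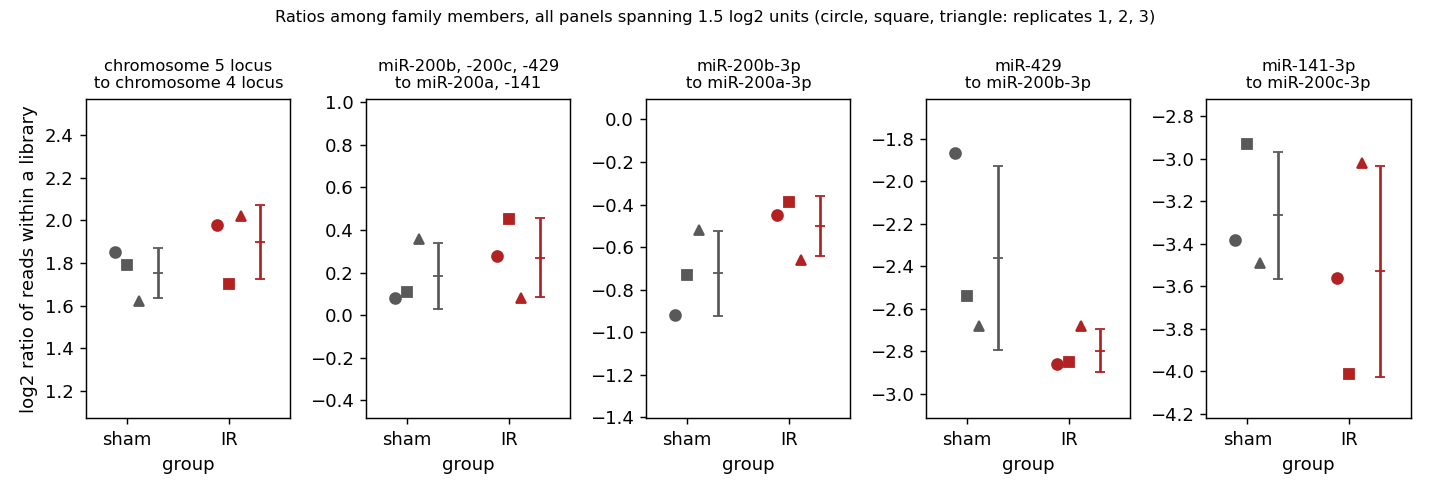
Log2 ratio of reads within a library (y axis, every panel spanning 1.5 log2 units) in sham (grey) and IR (red) for the loci, the seeds and 3 pairs of members, with 1 point per library and a bar at the mean ± SD. Only the ratio of miR-429 to miR-200b-3p has its groups apart among these panels, by a narrow margin and with sham replicate 1 well above the other libraries.

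The hairpins listed with both arms, those of miR-200a, miR-200b, miR-200c and miR-141, were read mainly as the 3p arm. miR-429 was listed without an arm suffix and without a partner, so its arms could not be compared. The 3p arm of miR-200a outnumbered the 5p arm 24.2, 28.2 and 27.9 times in sham and 24.8, 23.5 and 25.1 times in IR, that of miR-200b 94.4, 142 and 154 times in sham and 144, 169 and 140 times in IR, and that of miR-141 14.3, 28.0 and 21.4 times in sham and 26.1, 17.9 and 26.7 times in IR. All 3 arm ratios overlapped between groups. Their log2 differences were -0.12 ± 0.08 for miR-200a (exact permutation p = 0.3, adjusted p = 0.5), 0.24 ± 0.23 for miR-200b (p = 0.5, adjusted p = 0.625) and 0.18 ± 0.34 for miR-141 (p = 0.7, adjusted p = 0.7). Without sham replicate 1 the value for miR-200b was 0.02 and that for miR-141 was -0.08. The arms of miR-200c were not tested, because miR-200c-5p had fewer than 10 reads in sham replicate 3.

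Across the 6 libraries the members did not all vary together, and among the main arms this did not follow the loci. On log2(normalized CPM + 1), Pearson's r was 0.88 between miR-200a-3p and miR-200b-3p, which share a locus, and 0.87 between miR-200b-3p and miR-200c-3p, which share a seed but not a locus. It was 0.07 between miR-200b-3p and miR-429, which share both, with sham replicate 1 the lowest library for the first and the highest for the second. It was 0.01 between miR-141-3p and miR-200c-3p, which share the other locus. Pairs that include a 5p arm had an r of 0.59 to 0.92 within the chromosome 5 locus and of -0.60 to 0.46 within the chromosome 4 locus. Between the loci, miR-200a-3p and miR-200c-5p reached 0.91. These values describe 6 libraries in 2 groups that share the scaling of each library, and carry no test.

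The mean of the 5 centred main arms was -0.30, 0.01 and -0.10 in the sham libraries and 0.13, 0.10 and 0.17 in the IR libraries (log2 scale). The main arms, which enter this mean, did not all follow it. Their r with it was 0.964 for miR-200a-3p, 0.938 for miR-200b-3p, 0.730 for miR-200c-3p, 0.519 for miR-141-3p and 0.094 for miR-429. Among the 409 other tested miRNAs, 13 (3.18%) had an r above 0.9 with this profile over the 6 libraries. The 5 most alike were miR-151-3p (r = 0.990), miR-29a-3p (0.976), miR-29c-3p (0.974), miR-3556b (0.969) and miR-598-3p (0.969). By Spearman's rho miR-29a-3p had 0.829 and ranked 17, and the other 4 had 0.943 and tied for the first rank. Their log2 fold changes were 0.15, 0.52, 0.55, 0.54 and 0.54, and none of these 5 passed the adjusted threshold of edgeR's test. miR-3556b lies antisense to miR-29c-3p and its reads were 96.1 to 98.3% of those of miR-29c-3p, so that the pair counts as 1 pattern.

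The chromosome 5 hairpins lie downstream of the annotated start of LOC106182250, by 4264 bases to Mir200b. The 300 bases from 250 before to 50 after that start (chr5:171935804-171936103, minus strand, RefSeq GRCr8) are shown because Zeb factors are known to bind E-boxes upstream of this locus. Capitals mark CACCTG, which was searched together with its reverse complement CAGGTG.
LOC106182250 promoter: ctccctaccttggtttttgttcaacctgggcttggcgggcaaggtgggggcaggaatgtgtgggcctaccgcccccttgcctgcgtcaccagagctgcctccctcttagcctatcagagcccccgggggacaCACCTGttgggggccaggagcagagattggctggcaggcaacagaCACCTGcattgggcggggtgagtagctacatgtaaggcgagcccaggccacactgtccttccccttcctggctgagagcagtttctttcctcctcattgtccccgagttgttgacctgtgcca

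The letters CACCTG occurred at positions -118 to -113 and -73 to -68 from the start, and CAGGTG did not occur. At least 1 match was present in 18.8% of 33469 rat promoters of the same length, and 2 or more in 2.52%. A match describes the letters only, and binding was not measured here.

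miRNAs of other cell types were set beside the family, since whole lung was sequenced. Of 11 other epithelial miRNAs on the list, 10 were tested, with 2 higher and 0 lower in IR by the adjusted p of edgeR's test and a median log2 fold change of 0.43. Of all tested miRNAs, 7.89% were called higher and 2.63% lower, and the counts in the lists are to be read beside these shares. These 2 were miR-192-5p (log2 fold change 1.02, adjusted p = 0.0354) and miR-194-5p (1.00, adjusted p = 0.0317), which are known from liver and gut epithelium. The others included miR-375-3p (0.40, adjusted p = 0.247), a miRNA of secretory epithelium, and miR-182 (0.46, adjusted p = 0.32). miR-182 varied widely among the IR libraries (1681 ± 710 normalized CPM, SD, n = 3). Smaller differences were those of miR-183-5p (0.06, edgeR adjusted p = 0.858), miR-203a-3p (0.20, 0.385) and miR-96-5p (0.22, 0.693). The list summed to 4662 to 5187 normalized CPM in sham and 6105 to 7640 in IR, so that these groups, like those of the family, did not overlap. Of single tested miRNAs, 17.2% had every IR library above every sham library. The 6 miRNAs of ciliated airway cells had 0 higher and 0 lower, a median of -0.02 and sums of 3888 to 8576 in sham and 5804 to 6569 in IR.

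The summed levels of the lymphocyte and the myeloid lists were lower in every IR library than in every sham library. How often single tested miRNAs were apart in that direction was not counted. The 4 lymphocyte miRNAs summed to 1715 to 1777 normalized CPM in sham and 1019 to 1187 in IR, where 1 of 4 fell, miR-150-5p (log2 fold change -0.77, edgeR adjusted p = 0.0229). This miRNA made up most of the sum, at 1455 ± 67.0 in sham and 855 ± 139 in IR (SD, n = 3), and the list's median log2 fold change was -0.17. Of the others, miR-342-3p stood at -0.13 and miR-155-5p at 0.24. The 3 myeloid and leukocyte miRNAs summed to 1678 to 2764 in sham and 1267 to 1543 in IR, with 0 of 3 called and a median of -0.67. Among smooth muscle and fibroblast miRNAs 1 of 6 tested fell, miR-199a-3p (-0.65, edgeR adjusted p = 0.0229), with a median of -0.32, and the sums, nearly all miR-143-3p, were 136854 to 166696 in sham and 143499 to 163290 in IR.

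The 2 endothelial miRNAs, both arms of miR-126a, summed to 88072 to 111221 normalized CPM in sham and 83159 to 105386 in IR, with 0 called and a median of -0.02. The 4 erythroid miRNAs summed to 1233 to 4048 in sham and 1493 to 2155 in IR, with 0 called and a median of -0.93. Of miRNAs typical of tissues other than lung, 5 of 7 were tested and 1 rose, miR-1-3p of striated muscle (1.31, edgeR adjusted p = 0.0138). The other tested miRNAs of striated muscle did not rise with it, miR-133a-3p standing at -0.01 and miR-206-3p at -0.47. The list's median of 0.85 was the value of miR-9a-5p (70.6 ± 62.4 normalized CPM in IR, SD, n = 3, edgeR adjusted p = 0.36). The list summed to 87.4, 84.1 and 99.3 in sham replicates 1, 2 and 3 and to 104, 222 and 103 in IR. These groups did not overlap, but only IR replicate 2 stood far above the sham libraries. No miRNA of these lists was at 0 in all libraries. The part of these cell types in the family's levels was not tested.

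**Figure D4:**
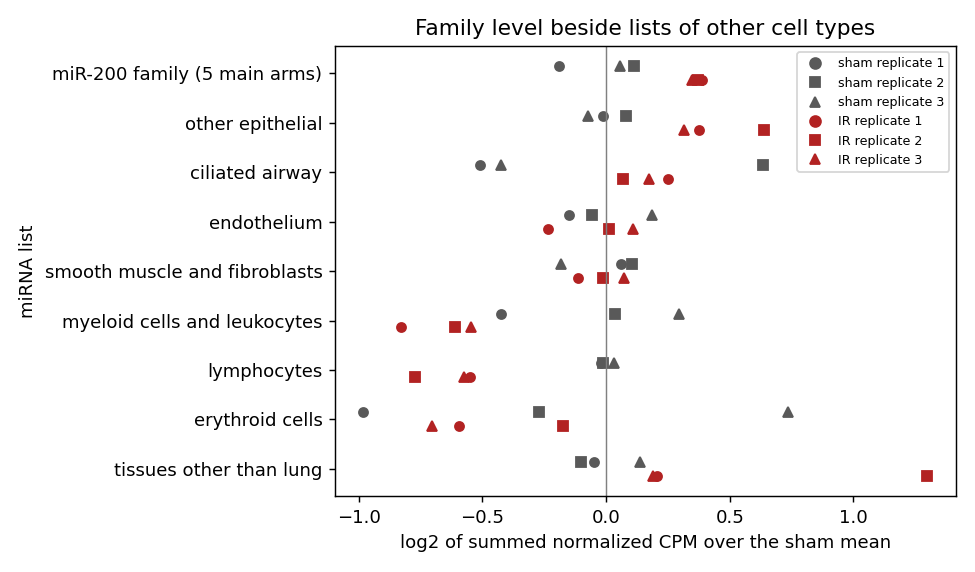
Summed level of the miR-200 family and of 8 lists of other miRNAs (y axis) in each library, as log2 of summed normalized CPM over the sham mean (x axis), grey for sham and red for IR, with marker shapes for replicates 1 to 3. IR libraries lie to the right of all sham libraries for the family, the other epithelial miRNAs and the miRNAs of tissues other than lung, and to the left for lymphocytes and for myeloid cells and leukocytes. For the miRNAs of tissues other than lung, only IR replicate 2 lies far from the sham libraries.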

How the data were processed

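Small RNA from 6 rat lung samples (3 IR, 3 sham) was analysed from 1 table in which the authors deposited whole read counts per miRNA and, beside them, TPM values. In this table TPM is CPM over the listed miRNA reads, with no length term. The submitters' processing notes name Bowtie. Not given in the sources used here are the genome build, the annotation, the counting tool, whether strand was used and how multiply matching reads were treated. Groups came from the labels, and 0 columns of values had no sample.

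Low counts were removed with filterByExpr at a minimum count of 10 and a minimum total of 15. Counts were scaled by TMM and tested over all 418 miRNAs with edgeR's quasi-likelihood test (edgeR 4.0.16, limma 3.58.1, R 4.3.3), with Benjamini-Hochberg adjustment and a threshold of 0.05. Some tested names had equal fits. miR-369-5p and miR-3578 both had a log2 fold change of 2.30 (edgeR adjusted p = 0.0229), and miR-434-3p and miR-3543 both had 1.50. The 418 tested names, and the shares given over them, thus hold some patterns more than once. Normalized CPM is CPM after TMM. Ratios used exact two-sided permutation tests over libraries (Python 3.11.15, scipy 1.17.1), adjusted over the 10 quantities. Alternatives were other scalings and filters, DESeq2 1.42.0, likelihood ratio and limma-trend tests, the replicate block and leaving out each library. Figures used matplotlib 3.10.9.

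The members and lists were chosen with earlier results of these data known. Named miRNAs are all members, the 5 others most like the family profile, the miRNAs next in level to each main arm, and abundant members of the lists. miR-192-5p, miR-194-5p, miR-150-5p, miR-199a-3p and miR-1-3p are named because they are the called members of their lists. Hairpins and promoters came from RefSeq (GRCr8). 1 listed name, miR-215, was not matched. Intervals of counting were not used, since replicates differed by far more than sampling noise. The qPCR and cell culture experiments of the study were not analysed here.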

Additional observations from a re-analysis of the deposited data

How the results depend on the processing

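With edgeR's quasi-likelihood test 0 of 9 members passed the adjusted threshold, and the count was 1 with scaling by total reads, with no filter, with at least 10 reads in every library, with the likelihood ratio test and with limma-trend (miR-200b-3p each time), 2 with DESeq2 and 3 at an unadjusted p. Leaving out each library in turn gave 0 to 2, the 2 being miR-200b-3p and miR-200c-5p without sham replicate 2. Over the 14 alternatives the log2 fold change of miR-200b-3p was 0.40 to 0.65 with an adjusted p of 0.0281 to 0.217, and that of miR-200a-5p was 0.41 to 0.52 with 0.0206 to 0.254. All members but miR-141-3p kept their direction under the alternatives run. miR-141-3p was at -0.01 with DESeq2 and at -0.19 to 0.26 when each library was left out. The log2 ratio of the miR-141 arms was -0.08 to 0.41 when each library was left out, and the cause was not tested.

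The log2 ratio of the loci was 0.08 to 0.25 when each library was left out, 0.15 over all arms and 0.20 as the mean of log2 levels. For the seeds these were 0.00 to 0.18 and 0.15, and the version with all arms was not run because the 5p arms carry other seeds.

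Calls over all miRNAs were 44 of 418 in the main test, 75 of 491 with DESeq2, 66 of 418 with the likelihood ratio test and 26 of 341 with at least 10 reads in every library. They were 44 of 450, 57 of 420 and 21 of 420 when sham replicate 1, 2 or 3 was left out, and 24 of 444, 17 of 436 and 2 of 410 when IR replicate 1, 2 or 3 was left out. The replicate block gave 0 calls of 418, 0 of them members, and 0.56 for miR-200b-3p (adjusted p = 0.199). Deviations of same-numbered libraries correlated at -0.234, -0.387 and -0.183. These values carry no test. The labels give same-numbered samples nothing in common but the number, and whether they shared a batch was not tested. For the ratios the smallest p that 3 same-numbered differences can give is 0.25, so the block gives no test of them at 0.05. Depth limited mainly miR-200c-5p, which had 9 to 38 reads in a library.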
